A study of Mus musculus with 3 samples.

Results

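Metabotropic glutamate receptors and the GABA-B receptor are G-protein-coupled receptors for glutamate and GABA, the main excitatory and inhibitory transmitters of the forebrain. The genes described here are Grm2, Grm3, Grm4, Grm5, Grm7, Grm8, Gabbr1 and Gabbr2, chosen by symbol, and all 8 were found among the 25562 genes of the count tables. The RNA came from neurons of the medial ganglionic eminence (MGE), the embryonic source of many cortical inhibitory interneurons. They were taken from C57Bl/6 mouse embryos at embryonic day 14 and kept for 10 days in culture. All cultures were silenced overnight from day 9 with TTX, which blocks sodium channels, and AP-5, which blocks NMDA receptors, and were then depolarized with 55 mM extracellular KCl for 0, 1 or 6 h. Every sample title marks the culture as WT (wild type), and the 0 h cultures are labelled unstimulated controls that had the same silencing. Each time had 1 library and the labels give no second culture, so the variation between cultures is unknown and no p-value is given; every interval below covers counting error only.

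Group I metabotropic receptors, such as that encoded by Grm5, act through Gq proteins on phospholipase C and release calcium from internal stores. Group II (Grm2, Grm3) and group III (Grm4, Grm6, Grm7, Grm8) receptors act through Gi and Go proteins, lower cyclic AMP and often sit on nerve terminals, where they limit transmitter release. The GABA-B receptor works as an obligate heterodimer: Gabbr1 encodes the subunit that binds GABA, and Gabbr2 the subunit that carries it to the cell surface and couples to Gi and Go proteins, which open GIRK potassium channels and close calcium channels.

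The 3 libraries held between 8549377 and 8996897 uniquely mapped reads, of which 2189394 to 2480579 were sense exonic reads and 1789710 to 2123187 were sense intronic reads. The MGE label was set against marker genes, and 10 of 10 interneuron markers found in the files (Gad1, Gad2, Slc32a1, Lhx6, Sst and others) reached 20 exonic reads, with a summed level of 4130, 3935 and 5280 RPM at 0, 1 and 6 h, RPM being reads per 1000000 sense exonic reads. The 8 excitatory neuron markers summed to 5.48, 4.07 and 2.82 RPM, none reached 20 reads, and Neurod2 and Emx1 had 0 reads in all 3 libraries. Astrocyte and radial glia markers were present, with 7 of 9 measured and 2283, 2421 and 2391 RPM, Gjb6 being at 0. Oligodendrocyte lineage markers had 5 of 8 measured and 145, 144 and 168 RPM, Mog being at 0. Microglial markers (0 of 6 measured, at most 0.457 RPM) and endothelial and mural markers (1 of 6 measured, at most 13.3) were low. The RNA is that of whole cultures, so fewer cells of a type and less RNA per cell cannot be told apart, and the part of any cell type in the values below was not tested.

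On mm9, the build of the files, the gene with most reads, Grm5, lies at chr7:94750951-95282660 on the plus strand with 8 counted exons. Grm4 lies at chr17:27559332-27640249 on the minus strand with 9 exons, and Gabbr2 at chr4:46676770-47004586 on the minus strand with 19 exons. None of the 8 genes overlaps another gene of the files, so their reads are not shared.

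Levels are given as RPKM, sense exonic reads divided by the length of the counted exons in kb and by the sense exonic reads of the library in units of 1000000, with an exact Poisson 95% interval. Grm5 and Gabbr1 dominated the set. Grm5, the group I gene, stood at 174 (167 to 181), 178 (172 to 185) and 160 (154 to 166) RPKM at 0, 1 and 6 h, from 2627, 3024 and 2741 reads. Gabbr1 stood at 169 (161 to 177), 154 (146 to 161) and 173 (166 to 181) RPKM, from 1657, 1693 and 1930 reads. Both lay above at least 97.05% of the 10311 genes that reached 20 exonic reads in 1 library or more, whose median was 15.5, 15.6 and 14.4 RPKM. Gabbr2 had 308, 255 and 265 reads, or 35.2 (31.4 to 39.3), 26.0 (22.9 to 29.3) and 26.7 (23.6 to 30.1) RPKM, so its 0 h interval lay above the 1 h and 6 h intervals.

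The group II and group III genes were all low. Grm7 had 72, 66 and 62 reads (7.87, 6.42 and 5.98 RPKM), Grm4 had 42, 23 and 17 reads (6.45, 3.15 and 2.30 RPKM) and Grm3 had 28, 37 and 28 reads (3.62, 4.26 and 3.19 RPKM). Grm2 had 11, 13 and 3 reads (1.5, 1.58 and 0.362 RPKM), its 6 h value being at the limit of 3 reads that a count of 0 would allow. Grm8 had 12, 13 and 15 reads (1.49, 1.44 and 1.64 RPKM). Summed over the 6 Grm genes of the set, Grm5 made up 89.3%, 91.4% and 92.2% of the RPKM at 0, 1 and 6 h.

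At 0 h the order per kilobase was Grm5, Gabbr1, Gabbr2, Grm7, Grm4, Grm3, Grm2 and Grm8. In all, 3 neighbouring pairs in it could not be separated beyond counting error: Grm5 and Gabbr1 (ratio 1.03, 95% interval 0.969 to 1.10), Grm7 and Grm4 (1.22, 0.823 to 1.83) and Grm2 and Grm8 (1.01, 0.403 to 2.5). At 1 h Grm5 exceeded Gabbr1 by 1.16 times (1.09 to 1.23), and at 6 h Gabbr1 exceeded Grm5 by 1.08 times (1.02 to 1.15). Within the heterodimer, Gabbr1 had 4.79 (4.24 to 5.43), 5.92 (5.18 to 6.78) and 6.49 (5.71 to 7.41) times the reads per kilobase of Gabbr2 at 0, 1 and 6 h, so the interval of the 6 h quotient did not overlap that at 0 h.

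**Figure D1:**
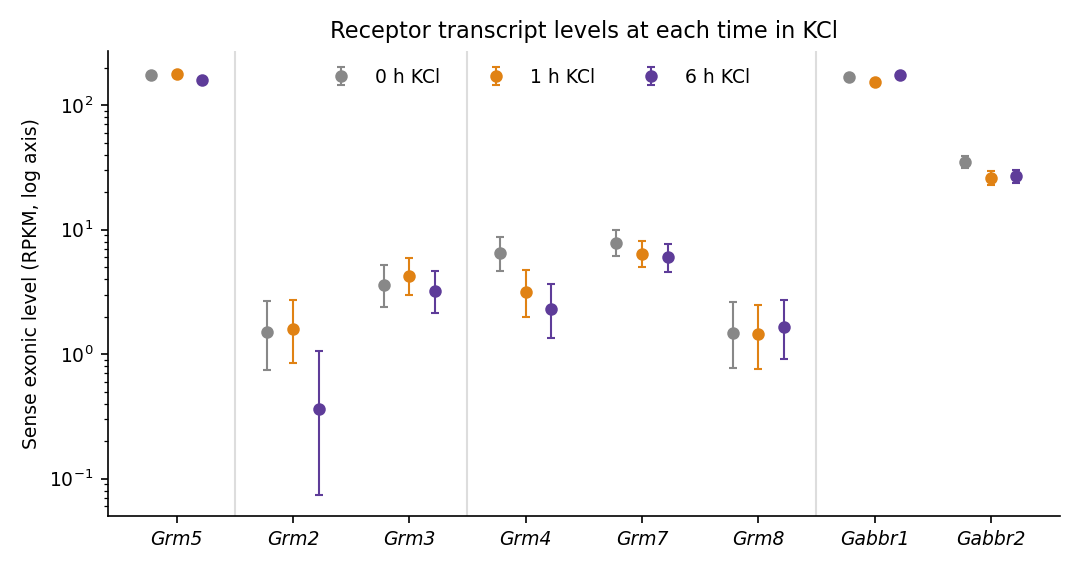
Level of each receptor gene in RPKM (log axis) at 0, 1 and 6 h in KCl, with exact Poisson 95% intervals; each point is 1 library and vertical lines divide group I, group II, group III and GABA-B genes. Grm5 and Gabbr1 sit between 154 and 178 RPKM at every time, Gabbr2 between 26.0 and 35.2, and the group II and III genes at 7.87 or less.

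Changes in KCl were read from ratios of TMM-scaled reads with exact Clopper-Pearson 95% intervals, and a gene was called higher at a ratio of 2 or more and lower at 0.5 or less, provided that its interval excluded 1 and that either library reached 20 reads. By that rule 1 of the 8 genes, Grm4, was lower at 1 h than at 0 h, where 1.43% of 10093 genes were lower and 3% were called in either direction. It was also the only one of the 8 called at 6 h against 0 h, where 5.42% of 10095 genes were lower and 10.3% were called. None of the 8 was called at 6 h against 1 h, where 8.8% of 10137 genes were. Grm2 and Grm8 were under the read minimum in these comparisons. Over the 6 measured genes the median log2 exonic ratio (pseudocount 0.5 reads) was -0.21 at 1 h and -0.19 at 6 h, against 0.01 and -0.00 over the 10311 measured genes.

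The exonic ratios of the group I gene Grm5 stayed close to 1. With TMM scaling its ratio was 1.03 (0.974 to 1.08) at 1 h and 0.987 (0.935 to 1.04) at 6 h over 0 h, so that a change of 2-fold lies far outside either interval. Whether the interval held 1 depended on the scaling: uniquely mapped reads gave 1.21 (1.15 to 1.28) at 1 h and 1.09 (1.04 to 1.15) at 6 h, and total exonic reads gave 0.921 (0.873 to 0.972) at 6 h.

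Among group II genes, Grm3 had ratios of 1.18 (0.702 to 1.999) at 1 h and 0.946 (0.540 to 1.66) at 6 h. A 2-fold change of Grm3 is at or beyond the edge of these intervals, while smaller changes were not detectable at this depth. Scaled by uniquely mapped reads, the 1 h ratio was 1.39 (0.828 to 2.36), and a 2-fold rise then lay inside the interval. Grm2 had too few reads for a call, with a ratio of 0.258 (0.0462 to 0.976) at 6 h from 3 reads at 6 h and 11 reads at 0 h.

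Among group III genes, Grm4 had 23 exonic reads at 1 h against 42 at 0 h, a ratio of 0.488 (0.280 to 0.831), and 17 reads at 6 h against 42 at 0 h, a ratio of 0.383 (0.204 to 0.687). The 1 h ratio was 0.576 (0.331 to 0.980) when scaled by uniquely mapped reads, and so outside the 2-fold rule, while the 6 h ratio lay between 0.357 and 0.424 under every scaling tried. Its reads were spread thinly over the gene: exon 8 had 12, 12 and 6 reads, exon 1 had 7, 2 and 3, and exon 6 had 7, 1 and 1. Intronic reads of Grm4 numbered 73, 49 and 34, which gave ratios of 0.914 (0.623 to 1.33) at 1 h and 0.522 (0.337 to 0.795) at 6 h, so that at 6 h both kinds of read were below 0 h. The 6 h intronic ratio met the rule for lower when scaled by total intronic reads (0.472), by uniquely mapped reads (0.488) or by the exonic TMM factors (0.44). Grm7 had exonic ratios of 0.818 (0.576 to 1.16) and 0.814 (0.570 to 1.16), and Grm8 could not be called. A 2-fold fall of Grm7 is outside these intervals, and smaller changes were not detectable at this depth.

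For Grm4, the genes with the most similar pair of log2 exonic ratios (1 h over 0 h and 6 h over 0 h) were looked for among 4481 other genes with at least 100 reads in each of the 3 libraries. The nearest was Myt1l, a neuronal zinc finger transcription factor, with 374, 214 and 167 reads at a distance of 0.13, then BC032203 with 248, 147 and 112 reads (0.17) and Gm879 with 230, 134 and 109 reads (0.22). With 3 libraries this is a description of 2 ratios per gene. The Grm4 ratios come from 42, 23 and 17 reads, with intervals of 0.280 to 0.831 and 0.204 to 0.687. These distances are small beside that counting error, so which genes lie nearest is not settled.

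The GABA-B subunits differed from each other. Gabbr2 had 255 exonic reads at 1 h and 265 at 6 h against 308 at 0 h, with ratios of 0.738 (0.623 to 0.874) and 0.814 (0.688 to 0.962), both inside the 2-fold limits. Scaling by uniquely mapped reads gave 0.871 (0.735 to 1.03) and 0.902 (0.763 to 1.07), so that the intervals then included 1. Gabbr1 had ratios of 0.911 (0.851 to 0.976) at 1 h and 1.10 (1.03 to 1.18) at 6 h over 0 h, and its 1 h direction flipped to 1.08 when scaled by uniquely mapped reads. Total exonic reads gave 1.03 (0.962 to 1.10) at 6 h, an interval that included 1, and uniquely mapped reads gave 1.22 (1.14 to 1.31). Intervals that excluded 1 at any fold were found for 3 of the 6 measured genes at each time, against 25% of genes at 1 h and 44.1% at 6 h.

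Intronic reads come mostly from RNA that has not been spliced, unless the intron holds exons of another transcript. They were counted on the sense strand of the same genes and scaled with TMM factors of their own, and 7 of the 8 genes reached 20 reads. None of the 8 met the 2-fold rule in intronic reads at 1 h, 6 h or between them, where 13.7%, 10.9% and 12.9% of genes did. Intervals that excluded 1 at any fold were found for 4 of the 7 at 1 h and for 4 of the 7 at 6 h, against 41.1% and 38.8% of genes.

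Gabbr2 and Grm4 had the lowest intronic ratios of the receptor genes at 6 h, with overlapping intervals. Gabbr2 had 367 intronic reads at 0 h, 164 at 1 h and 165 at 6 h, with ratios of 0.608 (0.503 to 0.733) at 1 h and 0.504 (0.417 to 0.608) at 6 h, the second lying just outside the 2-fold rule. Under every other scaling except the DESeq2 size factors the 6 h ratio was between 0.425 and 0.471 and met it. Gabbr1 lay on the other side of 1, with 206 reads at 1 h and 234 at 6 h against 191 at 0 h, which gave ratios of 1.47 (1.20 to 1.80) and 1.37 (1.13 to 1.67). The 1 h value of Gabbr1 was 0.962 when the exonic TMM factors were used, so that its direction depends on the scaling, while at 6 h the lowest value under any scaling was 1.16 (0.953 to 1.41), an interval that included 1.

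Of the other genes, Grm5 had 3705, 2518 and 2967 intronic reads, with ratios of 0.925 (0.879 to 0.973) at 1 h and 0.898 (0.855 to 0.943) at 6 h. Grm8 had 224, 122 and 185 intronic reads against 12, 13 and 15 exonic reads, and its ratio was 0.741 (0.590 to 0.928) at 1 h and 0.926 (0.758 to 1.13) at 6 h. Grm7 had 602, 442 and 488 intronic reads with ratios of 0.999 (0.882 to 1.13) and 0.909 (0.805 to 1.03). Grm3 had 71, 39 and 65 with ratios of 0.748 (0.492 to 1.12) and 1.03 (0.722 to 1.46), and Grm2 had 4, 2 and 3. Intronic reads were 94.9%, 90.4% and 92.5% of all sense reads in Grm8 and 89.3%, 87.0% and 88.7% in Grm7, the longest genes of the set at 859 and 922 kb, but 10.3%, 10.8% and 10.8% in Gabbr1, which spans 28.3 kb.

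**Figure D2:**
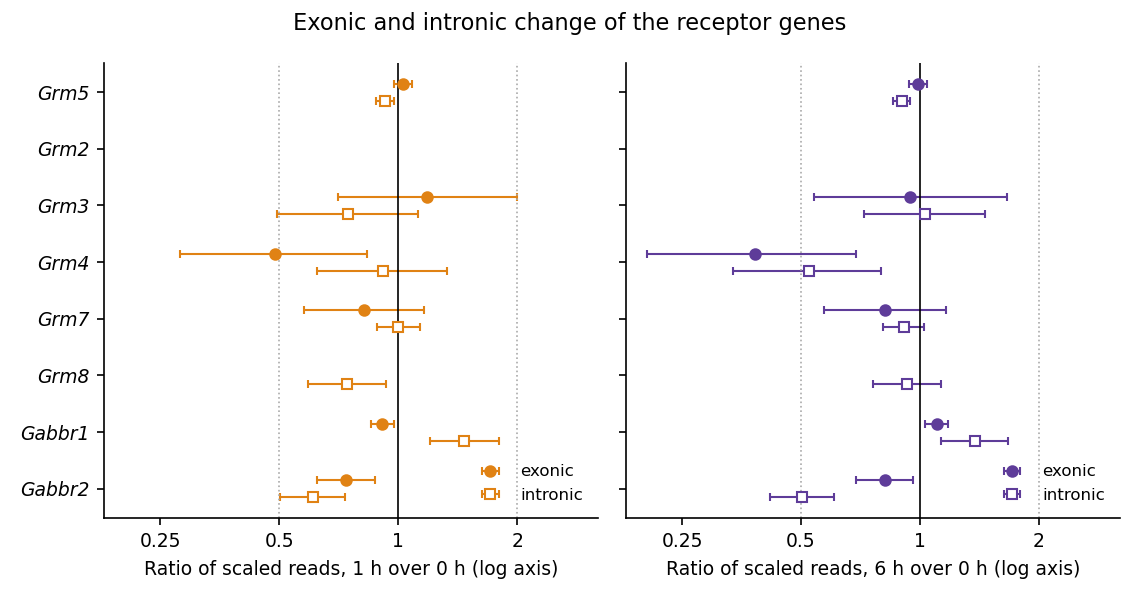
Ratio of scaled exonic reads (filled circles) and intronic reads (open squares) at 1 h over 0 h on the left and 6 h over 0 h on the right, with exact 95% intervals on a log axis; dotted lines mark 0.5 and 2, and values under 20 reads are left out. Grm4 exonic reads lie left of 0.5 at both times, Gabbr2 intronic reads reach 0.504 at 6 h, and Gabbr1 intronic reads lie right of 1.

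Dividing the exonic ratio by the intronic ratio of the same gene sets the change of mostly spliced against mostly unspliced RNA. Gabbr1 is a case apart, since 62.3%, 53.4% and 68.8% of its intronic reads lay in introns 4 and 5. Exons of other Gabbr1 transcripts lie in these introns, so those reads need not be unspliced RNA. At 6 h over 0 h the quotient was 1.61 (1.25 to 2.08) for Gabbr2, 0.802 (0.651 to 0.986) for Gabbr1 and 1.10 (1.02 to 1.18) for Grm5, so 3 of 6 measured genes had intervals that excluded 1, against 22.6% of 7450 genes. At 1 h over 0 h it was 0.621 (0.501 to 0.769) for Gabbr1, 1.11 (1.03 to 1.19) for Grm5, 1.21 (0.94 to 1.57) for Gabbr2 and 0.535 (0.271 to 1.04) for Grm4, and 2 of 6 excluded 1, against 30.8% of 7360 genes. The median quotient over all these genes was 0.981 at 1 h and 0.959 at 6 h.

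These quotients depended on the scaling. With both kinds of read scaled by uniquely mapped reads, 3 genes were above 1 and 0 below at 1 h, namely Grm3 at 2.41 (1.23 to 4.73), Gabbr2 at 1.85 (1.44 to 2.39) and Grm5 at 1.69 (1.57 to 1.82). At 6 h, 2 were above 1 and 0 below, Gabbr2 at 1.91 (1.48 to 2.47) and Grm5 at 1.30 (1.21 to 1.40). The quotient of Gabbr1 was then 0.947 (0.765 to 1.17) at 1 h and 0.951 (0.772 to 1.17) at 6 h, and no longer excluded 1. Leaving out introns 4 and 5 of Gabbr1, chosen after their counts were seen, gave TMM-scaled quotients of 0.502 (0.362 to 0.694) at 1 h and 0.969 (0.685 to 1.37) at 6 h. Scaled by uniquely mapped reads, these quotients were 0.766 (0.552 to 1.06) at 1 h and 1.15 (0.812 to 1.62) at 6 h. Each of those intervals included 1.

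In Gabbr2, ratios below 1 were found in intron 1 and in the introns after it. Intron 1, of 115 kb, held 170, 68 and 69 reads, with ratios of 0.544 (0.405 to 0.725) at 1 h and 0.455 (0.339 to 0.606) at 6 h, and intron 13, of 34.4 kb, held 58, 16 and 19 reads, with ratios of 0.375 (0.201 to 0.662) and 0.367 (0.207 to 0.626). Introns 2 to 18 together held 197, 96 and 96 reads, with ratios of 0.663 (0.514 to 0.851) and 0.546 (0.424 to 0.701). The change of intron 1 divided by that of the other introns was 0.821 (0.555 to 1.21) at 1 h and 0.833 (0.564 to 1.23) at 6 h, so the parts of the gene could not be told apart.

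In Grm5 the introns differed from each other. Intron 1, of 201 kb, held 1469, 851 and 1380 reads, and its change over that of the other introns was 0.777 (0.698 to 0.865) at 1 h and 1.32 (1.20 to 1.46) at 6 h. Intron 7, of 54.9 kb, held 890, 611 and 472 reads, and its change over that of the other introns was 1.01 (0.899 to 1.14) at 1 h and 0.598 (0.527 to 0.678) at 6 h. These quotients need no scaling, and the introns were picked after their counts were seen. The other introns set against intron 1 include intron 7, and the reverse, so the quotients are not independent. With intronic TMM scaling the 6 h ratio was 1.05 (0.978 to 1.13) for intron 1 and 0.595 (0.531 to 0.666) for intron 7. Reads in intron 7 were also denser than elsewhere in the gene, at 16.2, 11.1 and 8.61 reads per kb, where the other 6 introns had 3.08 to 7.32 reads per kb at 0 h. In the GENCODE M21 annotation, 96 bp of this intron are an exon of another Grm5 transcript, which is 0.175% of its length. Without intron 7 the intronic ratio of Grm5 was 0.922 (0.870 to 0.978) at 1 h and 0.994 (0.941 to 1.05) at 6 h.

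**Figure D3:**
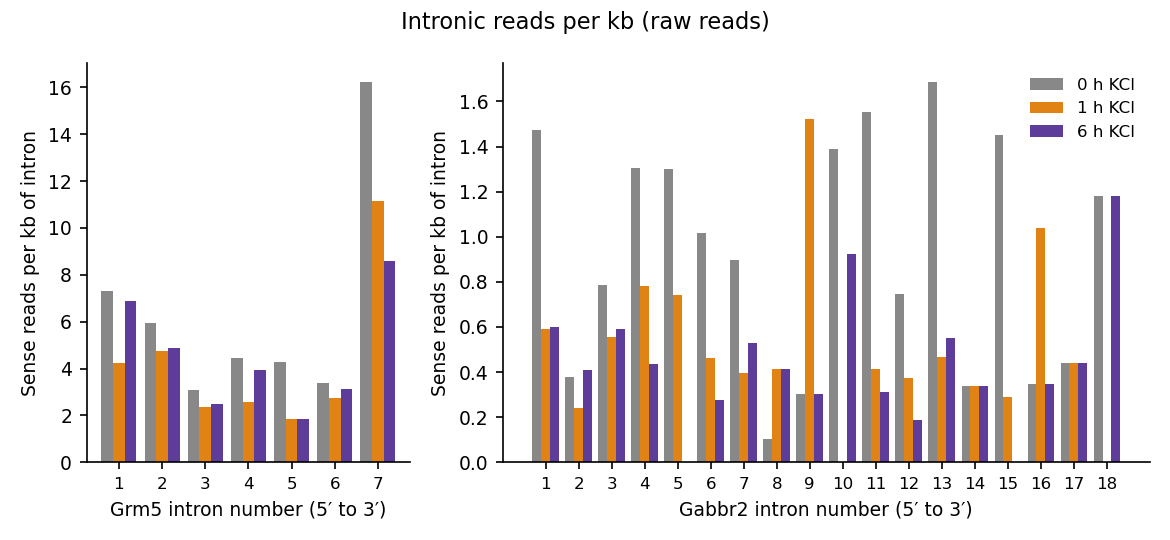
Sense intronic reads per kb of each intron of Grm5 (left) and Gabbr2 (right) at 0, 1 and 6 h, as raw reads of 1 library per bar. Intron 7 of Grm5 stands above its other introns and is lowest at 6 h, and introns 1 and 13 of Gabbr2, which hold most of its reads, are lower at 1 and 6 h than at 0 h.

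The counted model of Gabbr1 has 23 exons, and other transcripts of the gene use parts of its introns. GABA-B1a, the longer protein form, begins at the first exons and carries sushi domains, while GABA-B1b starts later and lacks them. The intron lengths of the counted model (chr17:37182911-37211250 on mm9, plus strand) were identical to those of Gabbr1-201 in GENCODE M21 on GRCm38. In that annotation Gabbr1-209 runs on from exon 4 for 861 bp into intron 4, and Gabbr1-203 begins with 368 bp at the end of intron 5 that lead straight into exon 6. The windows below show where these transcripts part, with the shared exon 4 (upper pair) or exon 6 (lower pair) in capitals and 15 bases on either side of the boundary. The read-through windows lie at chr17:37048592-37048621 and chr17:37050984-37051013 on GRCm38, plus strand.
Gabbr1-201 exon 4 joined to exon 5: AGCCCCACTGCCAGGtgaatcgaacgccac
Gabbr1-209 exon 4 read through: AGCCCCACTGCCAGGgtgaggggaacagct
Gabbr1-201 exon 5 joined to exon 6: gaacgccacactcagAACGGCGTGCAGTAT
Gabbr1-203 first exon running into exon 6: cgcacccctcctcagAACGGCGTGCAGTAT

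Reads were concentrated in these introns. Intron 4 had 89, 85 and 125 reads, or 76.1, 72.6 and 107 reads per kb, and intron 5 had 30, 25 and 36 reads, or 25.0, 20.8 and 30.0 reads per kb, while all other introns together had 72, 96 and 73 reads, or 3.35, 4.47 and 3.40 reads per kb. Introns 4 and 5 thus held 62.3%, 53.4% and 68.8% of the intronic reads of Gabbr1. Exons of other Gabbr1 transcripts cover 84.2% of intron 4 and 30.6% of intron 5. With both left out, the intronic ratio of Gabbr1 was 1.81 (1.32 to 2.5) at 1 h and 1.14 (0.810 to 1.6) at 6 h over 0 h, so at 6 h the interval then included 1. These ratios use the intronic TMM factors, and other scalings of them were not computed. Over all introns, the exonic TMM factors took the 1 h ratio of Gabbr1 from 1.47 to 0.962, so the 1 h value here depends on the scaling too.

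Exons 2 to 4, upstream of the later start, had 125, 151 and 142 reads against 839, 843 and 923 in exons 7 to 22, which both forms share. Per kb the upstream exons had 0.649 (0.533 to 0.784), 0.780 (0.651 to 0.928) and 0.670 (0.557 to 0.80) of the density of the shared ones. That quotient changed by 1.20 times (0.924 to 1.57) at 1 h and 1.03 times (0.791 to 1.35) at 6 h over 0 h, so no shift between the 2 parts of the gene was detectable at this depth. Exon 5, of 21 bp, is shorter than the 35-base reads and had 0 reads, and the junction of exons 4 and 5 had 1, 2 and 0 reads against 24, 12 and 20 at the junction of exons 6 and 7. At the other end of the gene, reads in the 3′ UTR of Gabbr1 numbered 378, 396 and 543 against 1272, 1291 and 1373 coding reads. The 3′ UTR change divided by the coding change was 1.03 (0.876 to 1.22) at 1 h and 1.33 (1.14 to 1.55) at 6 h over 0 h, where the median of 5326 genes was 1.04. Of these genes 9.89% had a 6 h interval that excluded 1, and 1 of the 3 receptor genes measured did. For Grm5 the 6 h quotient was 1.05 (0.937 to 1.17), and for Gabbr2 it was 1.56 (0.982 to 2.49).

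**Figure D4:**
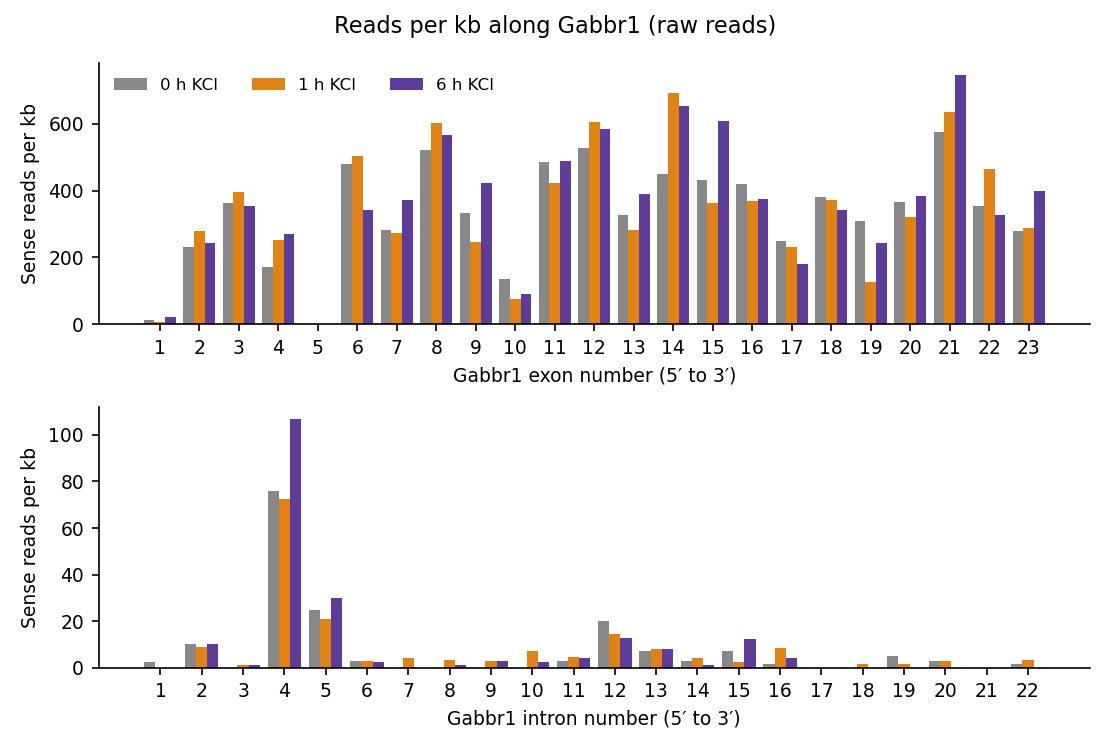
Sense reads per kb of each Gabbr1 exon (top) and intron (bottom) at 0, 1 and 6 h, as raw reads of 1 library per bar. Introns 4 and 5 stand above the other introns in all 3 libraries, and exon 5, of 21 bp, has 0 reads.

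Reads ran past the counted end of some genes. The 500 bp downstream of Grm5 held 125, 159 and 161 sense reads, or 250.0, 318 and 322 per kb, close to the 322, 361 and 338 per kb of its last exon. Downstream of Gabbr2 there were 47, 44 and 36 reads, or 94.0, 88.0 and 72.0 per kb, above the 43.7, 39.9 and 53.2 per kb of its last exon. Gabbr1 had 8, 5 and 5 reads there. The RPKM values of Grm5 and Gabbr2 leave these reads out.

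Antisense reads in the introns of the 8 genes summed to 255, 150 and 133. Grm3 had 127, 113 and 89, more than its sense intronic reads in each library, and no other gene of the files overlaps it. Gabbr2 had 34, 12 and 9, Grm7 had 39, 8 and 13, Grm8 had 31, 9 and 8, and Grm5 had 19, 6 and 5. Grm2, Grm4 and Gabbr1 had at most 5 in any library. With the exonic TMM factors, the 1 h ratio of Gabbr2 was 0.315 (0.148 to 0.623) for antisense and 0.399 (0.329 to 0.480) for sense intronic reads. Subtracting antisense from sense intronic reads left Gabbr2 at 0.621 at 1 h and 0.525 at 6 h and Grm4 at 0.953 and 0.481. No such value could be had for Grm3.

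The starts of the GABA-B subunit genes are shown because their TMM-scaled intronic ratios lay on opposite sides of 1 at 6 h. Without introns 4 and 5, the interval of Gabbr1 included 1 (1.14, 0.810 to 1.6). RefSeq promoter windows on GRCm38.p6, from 250 bases before to 50 bases after the annotated start, were available for 6 of the 8 genes, in 9 windows, and the capitals mark the 50 bases from the start. They lie at chr17:37045716-37046015 on the plus strand for Gabbr1 and chr4:46991665-46991964 on the minus strand for Gabbr2.
Gabbr1 promoter: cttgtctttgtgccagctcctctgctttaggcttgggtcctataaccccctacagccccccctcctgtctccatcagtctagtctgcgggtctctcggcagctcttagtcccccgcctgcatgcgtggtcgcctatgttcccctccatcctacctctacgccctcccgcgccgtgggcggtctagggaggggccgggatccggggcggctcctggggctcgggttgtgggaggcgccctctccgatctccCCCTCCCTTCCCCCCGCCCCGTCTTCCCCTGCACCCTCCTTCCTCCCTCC
Gabbr2 promoter: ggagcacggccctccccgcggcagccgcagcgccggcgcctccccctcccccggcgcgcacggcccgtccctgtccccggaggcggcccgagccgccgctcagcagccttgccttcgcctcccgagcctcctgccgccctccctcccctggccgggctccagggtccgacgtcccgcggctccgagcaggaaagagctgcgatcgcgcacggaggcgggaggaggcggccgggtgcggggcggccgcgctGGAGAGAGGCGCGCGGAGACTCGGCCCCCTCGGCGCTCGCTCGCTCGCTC
Both windows are rich in G and C, at 67.3% for Gabbr1 and 80.3% for Gabbr2. The cyclic AMP response element TGACGTCA and its shorter core TGACG, which the full element contains, were searched on both strands, as was the AP-1 element TGANTCA. None of them was found in the Gabbr1 or Gabbr2 window, where 1.79%, 20.8% and 7.81% of all 32851 promoter windows hold them. Of the 9 windows, 1 of Grm8 held TGACG and another of Grm8 held TGANTCA.

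Genes that act with these receptors were taken from 9 lists with 81 entries, of which 76 were found in the files by symbol and 68 were measured. At 1 h over 0 h, 1 gene was higher and 1 lower, and at 6 h over 0 h, 2 were higher and 0 lower, where 3% and 10.3% of all genes were called. The gene higher at both times was Homer1, which encodes a scaffold protein that binds group I receptors. It had 392 reads at 1 h and 478 at 6 h against 162 at 0 h, with ratios of 2.16 (1.79 to 2.61) and 2.79 (2.33 to 3.36). Its intronic reads numbered 362, 4593 and 1134 at 0, 1 and 6 h. Whether exons of other Homer1 transcripts lie in these introns was not examined, so these reads need not be unspliced RNA. The other 9 measured scaffolds and partners were not called, and the list median was -0.09 at 1 h and 0.06 at 6 h on the log2 scale. Ncdn, which encodes neurochondrin and was the most abundant of them per length, had 1269 and 1163 reads at 1 and 6 h against 973 at 0 h, with ratios of 1.16 (1.07 to 1.27) and 1.13 (1.04 to 1.23). Dlgap1, a postsynaptic scaffold, had 346 and 330 reads against 326, with ratios of 0.947 (0.811 to 1.10) and 0.957 (0.819 to 1.12).

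On the effector side of group I receptors, Prkca, a protein kinase C, had 149 reads at 1 h and 387 at 6 h against 147 at 0 h. It was higher at 6 h with a ratio of 2.49 (2.05 to 3.03), and its intronic reads numbered 634, 647 and 1389 at 0, 1 and 6 h. Plcb1, a phospholipase C, had 203 and 284 reads against 189, with ratios of 0.958 (0.782 to 1.17) and 1.42 (1.18 to 1.72). Of the 8 measured genes of this list, 1 was called, and the list median was -0.13 at 1 h and 0.17 at 6 h.

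The GABA-B effectors include the GIRK channels, of which 3 of 4 were measured. Kcnj9 had 15 reads at 1 h against 27 at 0 h, a ratio of 0.495 (0.245 to 0.965) that met the rule for lower, and 23 reads at 6 h, a ratio of 0.806 (0.441 to 1.46). Scaled by uniquely mapped reads, Kcnj9 no longer met it. Kcnj3 had 53 and 113 reads at 1 and 6 h against 63 at 0 h, with ratios of 0.750 (0.511 to 1.10) and 1.70 (1.24 to 2.35). None of the 9 measured auxiliary subunits and extracellular partners of the GABA-B receptor was called, and their median log2 ratio was 0.12 at 1 h and 0.30 at 6 h. App, whose extracellular part binds the receptor, and its relative Aplp1 were the most abundant, with 6 h ratios of 1.07 (1.01 to 1.13) for App and 1.15 (1.08 to 1.22) for Aplp1.

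The other lists held no call. The 15 measured G protein subunits had list medians of 0.08 and 0.25, led in level by Gnb1, with ratios of 1.16 (1.11 to 1.22) and 1.30 (1.25 to 1.36), and Gng3, with 1.04 (0.956 to 1.12) and 0.988 (0.909 to 1.07). The 13 measured adenylyl cyclases and protein kinase A subunits had medians of -0.06 and 0.11, led by Prkar1a at 1.35 (1.27 to 1.44) and 1.49 (1.40 to 1.58) and Prkar1b at 1.10 (1.02 to 1.19) and 0.943 (0.871 to 1.02). The 4 endocannabinoid genes had medians of -0.24 and -0.13, with Cnr1 at 0.857 (0.756 to 0.972) and 0.907 (0.80 to 1.03) and Mgll at 0.832 (0.682 to 1.02) and 0.919 (0.754 to 1.12). The 5 transporters of glutamate and GABA had medians of 0.01 and 0.04, with Slc1a3, a glial glutamate transporter, at 1.05 (0.981 to 1.13) and 1.05 (0.978 to 1.13). Grm6, the remaining group III gene, had 0 exonic reads in all 3 libraries.

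**Figure D5:**
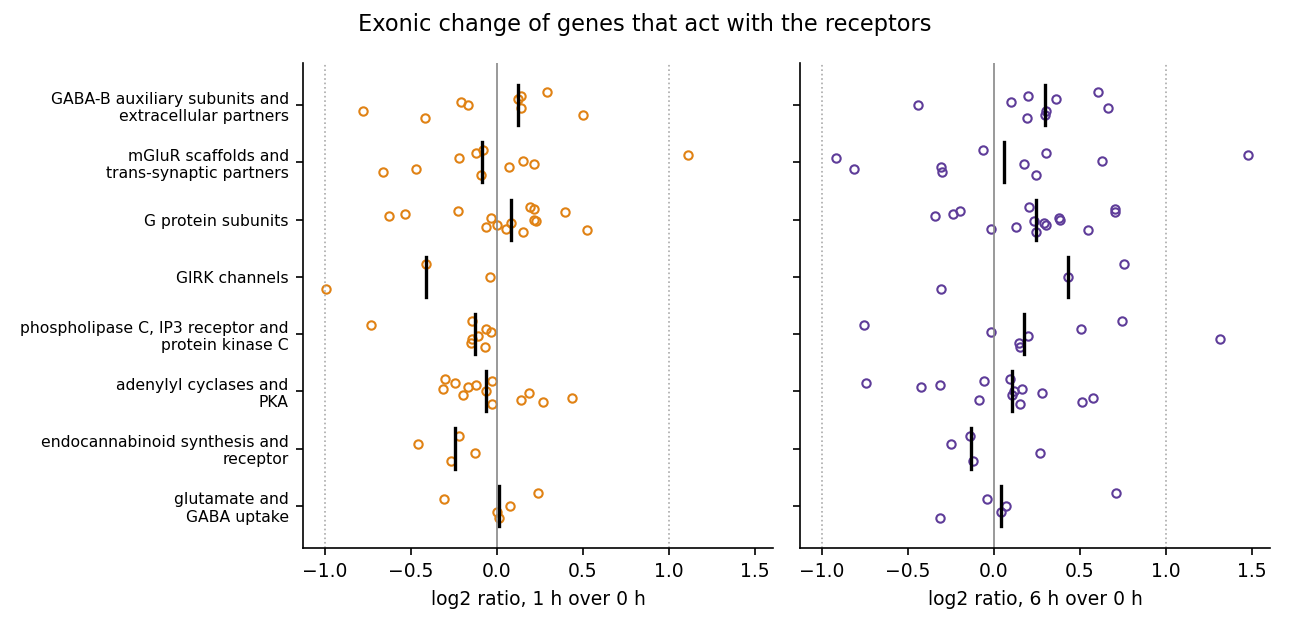
Exonic log2 ratio of each measured gene (open circles) of the 8 lists with more than 1 measured gene at 1 h over 0 h on the left and 6 h over 0 h on the right, with list medians as black bars and dotted lines at -1 and 1. Homer1 is the only gene right of 1 at 1 h, and Homer1 and Prkca are right of 1 at 6 h.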

How the data were processed

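Strand-specific, ribosome-depleted total RNA was sequenced in 3 libraries, 1 for each time in KCl. Per the deposited counting logs, the authors used SOLiD reads of 35 bases with a unique match and at most 3 mismatches on mm9 or on joined RefSeq exons, without removing duplicates. No aligner is named in these logs or labels. The deposited counts are raw sense and antisense reads per gene, exon, intron, junction and 500 bp flank. The authors' deposited coverage signal, read bases per base scaled to 10000000 mapped reads, served only as an alternative.

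Exonic and intronic counts were scaled separately with TMM factors (edgeR 4.0.16, R 4.3.3). Ratios have exact Clopper-Pearson 95% intervals, and quotients exact conditional ones (scipy 1.17.1, numpy 2.4.6, pandas 2.3.3, Python 3.11.15; figures in matplotlib 3.10.9). DESeq2 1.42.0 gave alternative size factors only. No count model could be tested with 1 library per time. The intervals and the call rule were tested on simulated Poisson counts, which have only the counting error that the intervals assume. That test checks the computation and cannot show how the intervals hold for duplicates or for variation between cultures. Reads without molecular identifiers are not independent molecules, so intervals and the limit of 3 reads cover counting error only. Introns of the counted models were set against GENCODE M21 (GRCm38) by length, which matched fully for 7 of 8 genes, and no coordinates were converted.

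The genes and lists were chosen with earlier results of these data known. Named were all 8 genes, list genes that were called at 1 h or 6 h against 0 h, the 2 most abundant genes per length of each list at 0 h, and for each called receptor gene the 3 nearest patterns; some genes that this rule names are not reported here. Introns 4 and 5 of Gabbr1, introns 1 and 7 of Grm5, and introns 1 and 13 of Gabbr2 were singled out after their values were seen. Of the list entries, 5 were not analysed here because no symbol in the files matched.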

Additional observations from a re-analysis of the deposited data

How the results depend on the processing

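With TMM scaling, 1 receptor gene was called in exonic reads at 1 h over 0 h and 1 at 6 h over 0 h. The 1 h count became 0 with scaling by uniquely mapped reads, 0 with a minimum of 50 reads and 0 with the authors' coverage. The 6 h count became 2 with no read minimum, which added Grm2, and 0 with a minimum of 50 reads. At 6 h over 1 h the count of 0 became 1 with no minimum. In intronic reads, the count of 0 at 1 h became 1 with uniquely mapped reads, 1 with a fold of 1.5 and 3 with the exonic TMM factors. The count of 0 at 6 h became 2 with total intronic reads, 2 with uniquely mapped reads, 2 with a fold of 1.5 and 2 with the exonic factors, and that of 0 at 6 h over 1 h became 1 with a fold of 1.5. Among list genes, the 2 calls at 1 h became 1 with uniquely mapped reads, 1 with a minimum of 50 reads and 5 with a fold of 1.5, and the 2 at 6 h became 12 with a fold of 1.5, alternatives chosen after seeing the data. The 42 other alternatives for these counts and medians left them within 1.5 times or 1 SD. A count within that limit can still cover other genes. With uniquely mapped reads, the exonic against intronic quotients that excluded 1 at 1 h went from 1 higher and 1 lower to 3 higher and 0 lower. For single ratios and list medians, 105 alternatives stayed within the interval or SD of the value reported and 11 did not, and none reversed a called ratio. Other scalings of the intronic ratios and of the list medians were not among these alternatives. Some intronic ratios left their interval under other scalings. With the exonic TMM factors, intronic Grm5 at 1 h was 0.606, against an interval of 0.879 to 0.973. Intronic Gabbr2 at 1 h was 0.399, against 0.503 to 0.733. No paired analysis was possible because each time had 1 library, and no replicate could be left out.

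Scaling by uniquely mapped reads moved the median log2 exonic ratio of all genes to 0.25 at 1 h and 0.15 at 6 h, and the share of calls that were higher to 85.1% and 64.5%, where TMM gave 52.5% and 47.6%. Total exonic reads gave 35.6% at 6 h. For intronic reads the median moved to -0.65 at 1 h and -0.19 at 6 h with the exonic TMM factors, and the share that were higher was 8.70% and 22.8%, where intronic TMM gave 54.7% and 48.5%. Genes with under 50 reads, such as Grm2, Grm3, Grm4 and Grm8, are limited by depth.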
